A study of Mus musculus with 24 samples.

Results

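The leptin receptor and the genes that carry or restrain its signal were followed in the hypothalamus of overfed and control mice. The 9 genes were chosen by symbol: Lepr, Jak2, Sh2b1, Stat3, Stat5a, Stat5b, Socs3, Ptpn1 and Ptpn2. All 9 were matched by Ensembl ID among the 55471 genes counted, and all 9 passed the filter on low counts with 18992 genes in total. The mice were male C57BL6/J animals, 18 weeks old, with 6 mice in each of 4 groups. ExpOF mice received a sucrose-enriched liquid diet through a gastric catheter, and Control mice received sterile water at the same flow rates. ExpOF d14 and Control d14 mice were sampled at the end of the infusion on day 14. ExpOF d14+3 and Control d14+3 mice were sampled on day 17, 3 days after the catheter of both groups had been switched to water at a common rate. All mice carried the catheter and had chow, and no group carried a mutation. Control d14 replicate 4 was left out, so that 23 libraries were compared and Control d14 held 5 mice.

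Leptin is secreted by fat tissue and reports the size of the energy store to the brain. Its receptor, encoded by Lepr, has no kinase activity of its own: the bound kinase JAK2 phosphorylates it, the adaptor SH2B1 enhances JAK2, and STAT3 and the STAT5 proteins dock, enter the nucleus and activate transcription. SOCS3, induced by STAT3, and the phosphatases PTP1B (Ptpn1) and TCPTP (Ptpn2) switch the signal off. In the hypothalamus this pathway is best known in neurons of the arcuate nucleus, where leptin lowers the expression of the appetite-stimulating peptides of the Agrp and Npy neurons.

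STAT proteins bind a palindromic element whose core can be written TTCNNNGAA, the same on both strands. RefSeq promoter windows of 300 bases (250 before and 50 after a start site, build GRCm38.p6) were found for 8 of the 9 genes, in 12 windows. Ptpn2 had no match. The element was present in 1 of these 12 windows, that of Socs3, and in 8.30% of the 32851 windows of all genes, so its share in the members was that of all windows. The stretch of the Socs3 window that lies outside annotated exons is shown because it holds this element, in capitals, and the Stat3 stretch is shown for comparison because Stat3 was the gene whose d14 groups did not overlap. The Socs3 stretch is chr11:117969452-117969616 and the Stat3 stretch is chr11:100939541-100939790, both on the minus strand. The first lies inside the annotated Socs3 gene but outside its exons, and the second lies upstream of the annotated Stat3 start. The absence of the letters from the Stat3 stretch says nothing of STAT binding elsewhere.
Socs3: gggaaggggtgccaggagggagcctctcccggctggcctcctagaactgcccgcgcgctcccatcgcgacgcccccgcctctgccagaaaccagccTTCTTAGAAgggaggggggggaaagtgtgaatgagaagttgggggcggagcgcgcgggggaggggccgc
Stat3: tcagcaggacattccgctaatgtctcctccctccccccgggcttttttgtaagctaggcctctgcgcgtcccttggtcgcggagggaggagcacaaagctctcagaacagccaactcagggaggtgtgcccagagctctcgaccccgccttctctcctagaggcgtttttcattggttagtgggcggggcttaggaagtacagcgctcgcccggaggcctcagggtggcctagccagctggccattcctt

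All 13 hypothalamic marker genes, among them Hcrt, Pmch and Trh, had counts in every library. The total count was 8928182 to 34848437 per library. RNA integrity numbers (RIN) averaged 9.20 in Control d14, 9.75 in ExpOF d14, 8.62 in Control d14+3 and 9.43 in ExpOF d14+3. The mice formed cohorts of July and September by their day of death, with 3 mice of each group per cohort, except for the 2 September mice left in Control d14. Markers of the choroid plexus, a tissue known to express Lepr strongly, summed to 287 to 384 CPM in 21 libraries (CPM are counts scaled to the library size), but to 4329 CPM in Control d14 replicate 5 and 2055 CPM in ExpOF d14+3 replicate 4. All 13 of these markers had counts in every group. In ExpOF d14 and Control d14+3, which hold neither of these high libraries, most of the sum came from Enpp2 (mean 231 and 256 CPM). Ttr had 12.1 ± 10.7 CPM (SD) in Control d14+3 and a lower mean in ExpOF d14. Similar sums therefore do not show similar levels of every choroid plexus marker. The left-out library held 4 Lepr counts (0.416 CPM), 25.0 CPM of Jak2 and 62.2 CPM of Stat3, below every other library for these genes. Its profile had a correlation of 0.913 with the median of its group, where the lowest of the other libraries had 0.985, and its labelled RIN was 9.8.

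Levels were compared between genes per exon length, as RPKM, the CPM divided by the exon length in kilobases. Averaged over the 23 libraries, Sh2b1 was the highest at 19.5 ± 1.81 RPKM (SD, n = 23), followed by Stat5b at 13.1 ± 0.703. Jak2 (9.67 ± 0.845 RPKM) and Stat3 (9.11 ± 0.643 RPKM) were neighbours that did not separate, with Jak2 above Stat3 in 16 of 23 libraries. The phosphatase genes came next, with Ptpn1 at 6.69 ± 0.451 and Ptpn2 at 5.06 ± 0.400 RPKM. Socs3 (1.35 ± 0.351 RPKM) lay above Stat5a (0.745 ± 0.134 RPKM) in 21 of 23 libraries. Stat5a lay above Lepr (0.634 ± 0.167 RPKM) in only 14, so this pair did not separate either. Every other neighbouring pair kept its order in all 23 libraries. Lepr and Stat5a were thus the scarcest of the 9 transcripts. Lepr had 43 to 198 counts per library, whereas Stat3 had 814 to 3168. Biological variation between mice of a group, estimated by edgeR, was largest for the 3 scarcest genes: it was 22.5% for Lepr, 22.4% for Socs3 and 15.4% for Stat5a, but 5.78% for Stat3 and 5.89% for Stat5b. At d14 the standard error of the log2 fold change was 0.046 for Stat3 and 0.047 for Stat5b, 0.15 for Stat5a and 0.21 for Lepr.

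Some reads could belong to a neighbour. Stat3 and Stat5a lie tail to tail on chromosome 11 (100885098 to 100939404 and 100859351 to 100885169, mm10) and share 72 exonic bases on opposite strands, 0.756% of the Stat3 exons and 1.01% of the Stat5a exons. The paralogs Stat5a and Stat5b share 8.07% of the Stat5a and 10.8% of the Stat5b transcript words of 51 bases, the read length. No other gene overlapped the remaining members. GENCODE vM21 lists 7 Lepr transcripts, 4 of them protein coding. The gene counts do not separate the long signalling receptor from its short forms.

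The first question was whether hypothalamic leptin signalling genes differed at the end of overfeeding. At d14 Stat3, Jak2 and Stat5b were higher in ExpOF than in Control mice by 1.12-, 1.13- and 1.08-fold at an unadjusted p under 0.05, and none of the 9 genes was lower at that level. None of the 9 genes passed after adjustment over the 18992 genes tested (edgeR's quasi-likelihood test, smallest adjusted p = 0.135). After adjustment 0.00527% of all genes passed at d14, which was the single gene Npy. Without adjustment, 13.1% of all genes were higher, beside 3 of the 9 members, and 13.6% were lower. The fitted fold change was above 1 for 7 of the 9 members and for 46.6% of all genes, and the median log2 fold change was 0.11 for the members and -0.02 for all genes. DESeq2 called 1 member, Stat3, beside 1.13% of the genes it tested. In whole tissue, fewer cells of a type and less RNA per cell cannot be told apart.

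**Figure D1:**
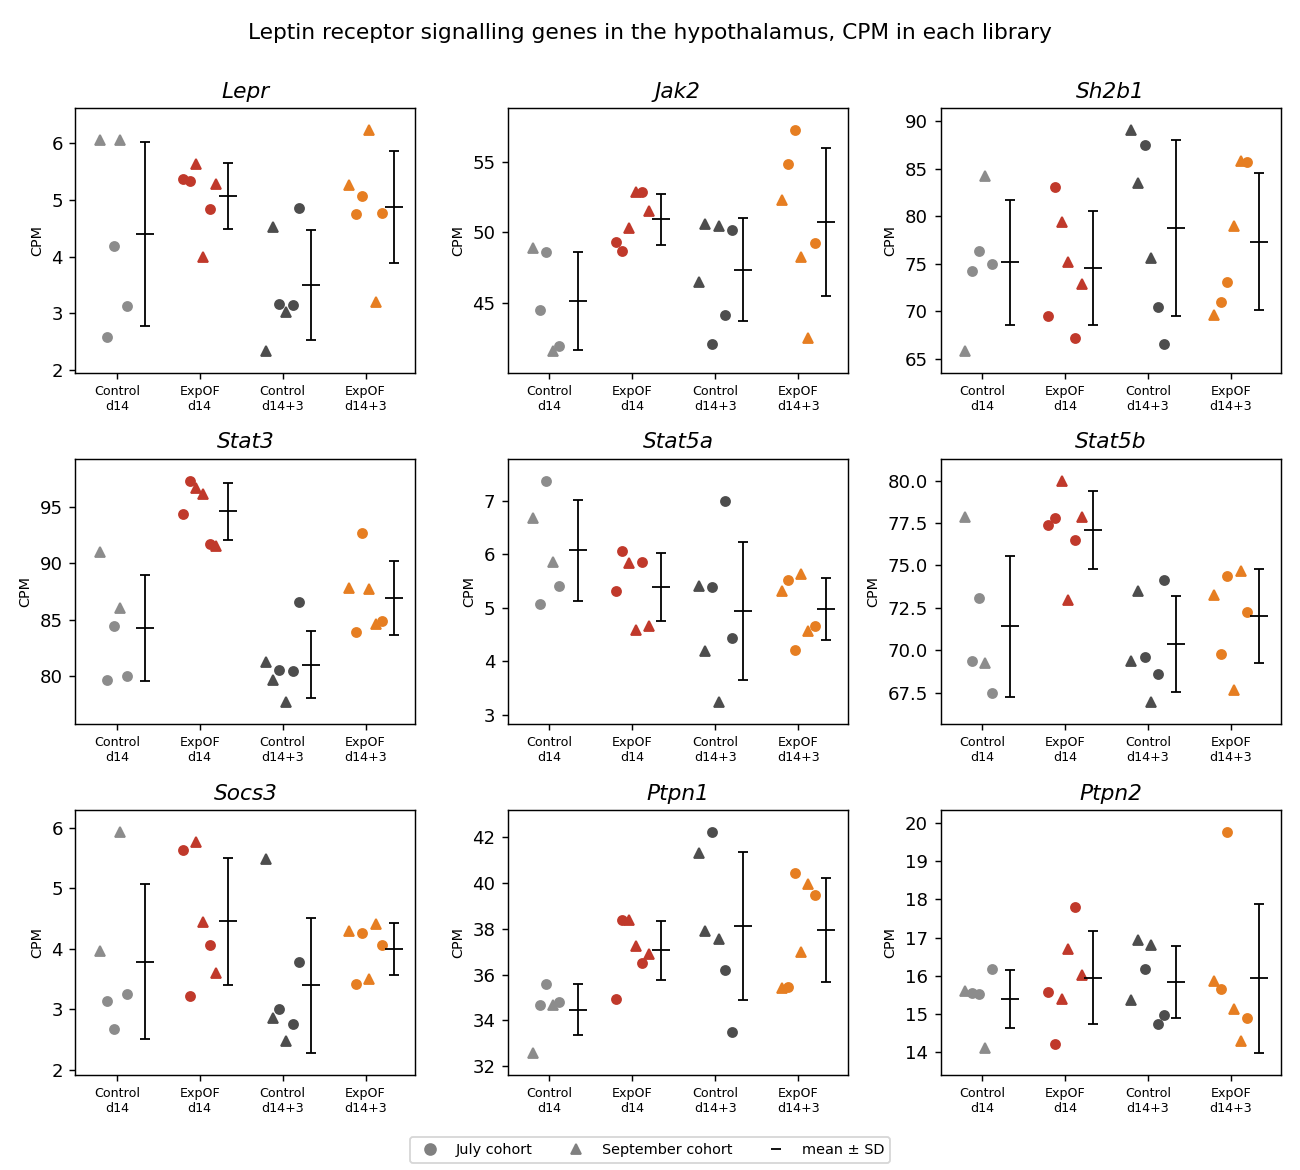
CPM of the 9 genes in each of the 23 libraries, by group, with circles for the July and triangles for the September cohort and the mean ± SD beside each group. Each panel has its own axis, which does not start at 0. At d14 the 6 ExpOF mice lie above all Control mice for Stat3, whereas the Lepr and Socs3 groups overlap.

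Lepr encodes the receptor itself. The Control d14 mice had 6.06, 2.58, 4.18, 6.06 and 3.13 CPM (replicates 1, 2, 3, 5 and 6), and the ExpOF d14 mice had 3.99 to 5.63 CPM with a median of 5.30. The ExpOF mice lay inside the range of the Control mice, which spread more widely. Lepr was 1.16-fold higher in ExpOF mice, with a 95% interval of 0.861 to 1.55 (log2 fold change 0.21 ± 0.21 SE, n = 6 and 5; edgeR's quasi-likelihood test, adjusted p = 0.511). An exact permutation test gave p = 0.273. Both high Control values came from September mice, and the cohorts went in opposite directions: the log2 fold change was 0.66 in the July cohort alone (edgeR's quasi-likelihood test, adjusted p = 0.240) and -0.29 in the September cohort alone (adjusted p = 0.872). The difference between the cohorts was not tested. Of these Control mice, replicate 5 was the one with 4329 CPM of choroid plexus markers. Without the 2 libraries high in these markers the log2 fold change was 0.35 (adjusted p = 0.383), and with all 24 libraries it was 0.41. With 1 library at a time left out it was 0.066 (without Control d14 replicate 2) to 0.36 (without Control d14 replicate 5), at 0.094 without Control d14 replicate 6 and 0.35 without Control d14 replicate 1.

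Jak2 encodes the kinase bound to the receptor. It was measured at 48.9, 44.5, 48.6, 41.6 and 42.0 CPM in Control d14 mice and at 48.7 to 52.9 CPM (median 50.9) in ExpOF d14 mice. All but 1 of the 6 ExpOF mice lay above every Control mouse. Jak2 had a log2 fold change of 0.17 ± 0.07 (SE; edgeR's quasi-likelihood test, unadjusted p = 0.0189, adjusted p = 0.144; two-sided exact permutation test, p = 0.00433). It was 0.16 in July and 0.19 in September mice. Sh2b1, the adaptor that enhances JAK2, had 65.9 to 84.2 CPM in Control d14 and 67.2 to 83.0 CPM in ExpOF d14 mice. These ranges coincided almost fully, and the fold change was 0.992 with a 95% interval of 0.883 to 1.12.

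Stat3 encodes the main transcription factor downstream of the receptor. Control d14 mice had 91.0, 79.6, 84.5, 86.0 and 80.0 CPM, and ExpOF d14 mice had 91.5 to 97.3 CPM with a median of 95.3. The groups did not overlap, though the lowest ExpOF mouse lay only just above Control replicate 1. Such a separation upward was seen for 1 of the 9 members and for 1.54% of all genes. Stat3 was 1.12-fold higher in ExpOF mice (95% interval 1.05 to 1.20; edgeR's quasi-likelihood test, unadjusted p = 0.00106, adjusted p = 0.135). The exact permutation test gave p = 0.00216, the smallest it can give with 6 and 5 mice. DESeq2 gave an adjusted p of 0.0206. The log2 fold change was 0.22 in July and 0.10 in September mice.

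Stat5b, one of the STAT5 genes, was higher at a smaller size and with overlap of the groups. Its CPM was 77.8, 69.3, 73.1, 69.3 and 67.5 in Control d14 and 73.0 to 80.0 (median 77.6) in ExpOF d14 mice. Control replicate 1 lay among the ExpOF mice, replicate 3 lay level with the lowest of them, and the other Control mice lay below all of them. Stat5b had a log2 fold change of 0.11 ± 0.05 (SE; edgeR's quasi-likelihood test, unadjusted p = 0.0263, adjusted p = 0.151; exact permutation test, p = 0.0325). Stat5a, its scarcer paralog, had 5.06 to 7.36 CPM in Control d14 and 4.59 to 6.05 CPM in ExpOF d14 mice. Its log2 fold change was -0.18 ± 0.15 (SE; edgeR's quasi-likelihood test, adjusted p = 0.420), and the groups overlapped.

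The genes that restrain the signal gave smaller or less certain differences. Socs3, the STAT3-induced inhibitor, had 3.96, 3.13, 2.67, 5.92 and 3.25 CPM in Control d14 and 3.22 to 5.76 CPM (median 4.25) in ExpOF d14 mice. The highest value of all was a Control mouse, replicate 5, the library high in choroid plexus markers. Socs3 had a log2 fold change of 0.25 ± 0.20 (SE; edgeR's quasi-likelihood test, adjusted p = 0.425; exact permutation test, p = 0.288). Without Control d14 replicate 5 it was 0.48 (unadjusted p = 0.0235, adjusted p = 0.325), and without Control d14 replicate 3, ExpOF d14 replicate 3 or ExpOF d14 replicate 1 it was 0.15, 0.15 and 0.16. It was 0.54 in July and -0.11 in September mice. The choroid plexus markers' part in the Lepr and Socs3 values was not tested.

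**Figure D2:**
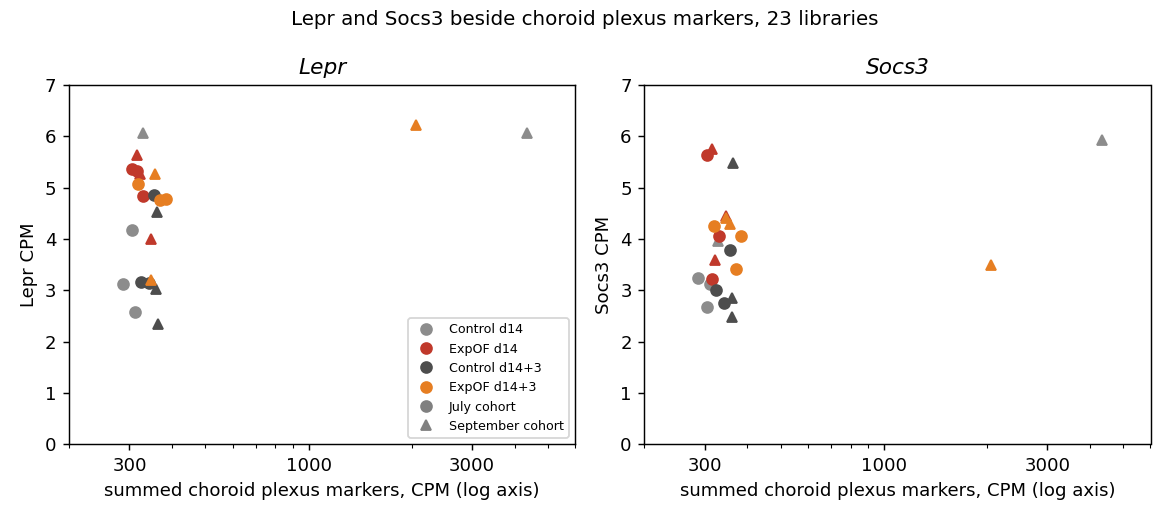
Lepr (left) and Socs3 (right) CPM against the summed CPM of 13 choroid plexus markers on a log axis, 1 point per library, coloured by group, circles for July and triangles for September mice. Control d14 replicate 5 (4329 CPM of markers) and ExpOF d14+3 replicate 4 (2055 CPM) stand apart, with 6.06 and 6.23 CPM of Lepr. In ExpOF d14 and Control d14+3 most of the sum came from Enpp2.

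Ptpn1, the phosphatase that acts on JAK2, was measured at 32.6, 34.7, 35.6, 34.7 and 34.8 CPM in Control d14 and at 34.9 to 38.4 CPM (median 37.1) in ExpOF d14 mice. The lowest ExpOF mouse lay below the highest Control mouse, and the other 5 lay above all of them. The log2 fold change was 0.10 ± 0.06 (SE; edgeR's quasi-likelihood test, unadjusted p = 0.0844, adjusted p = 0.238; exact permutation test, p = 0.00866). Ptpn2, the related phosphatase that acts on STATs in the nucleus, had 14.1 to 16.2 CPM in Control d14 and 14.2 to 17.8 CPM in ExpOF d14 mice. Its groups overlapped and its fold change was 1.03 (95% interval 0.927 to 1.15).

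**Figure D3:**
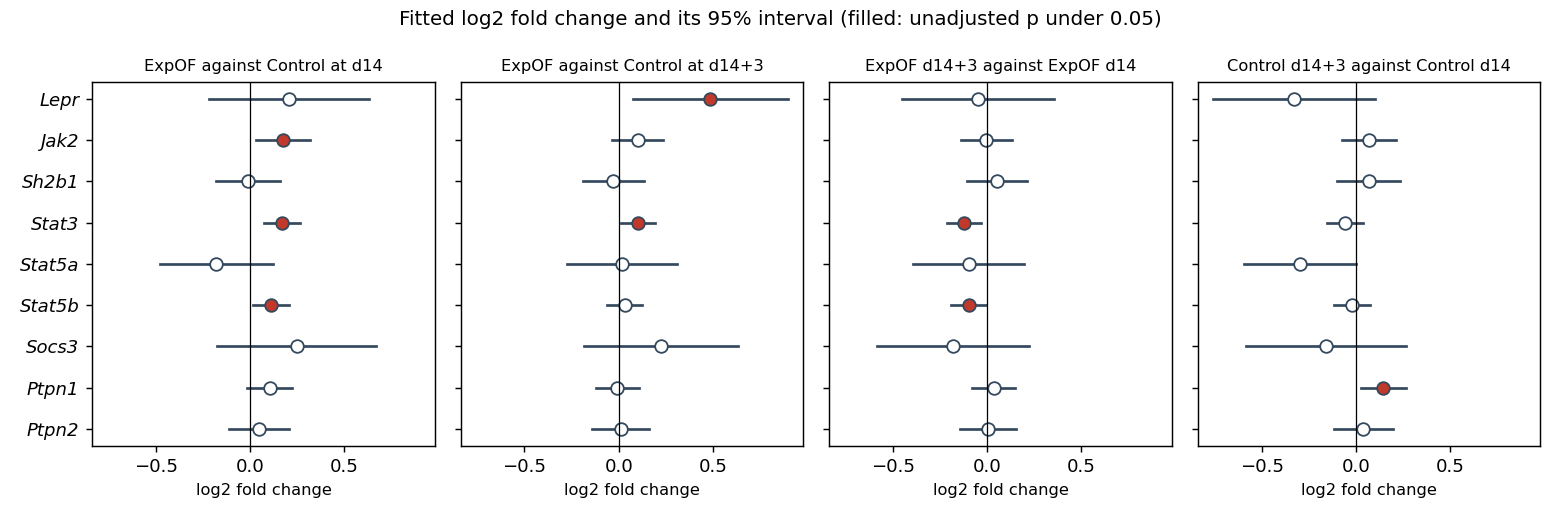
Fitted log2 fold change of each gene with its 95% interval in 4 comparisons (horizontal axis), filled where the unadjusted p was under 0.05. At d14 the filled genes are Jak2, Stat3 and Stat5b, at d14+3 they are Lepr and Stat3, and no gene had an adjusted p under 0.05 in any of them.

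Fold changes at d14 moved with the length of the gene. Among all tested genes the median log2 fold change rose from -0.21 for the shortest genes to 0.17 for the longest (10 classes of equal size), the class of Stat3, with 9527 exonic bases. The Stat3 value of 0.17 was thus no larger than that median. Once the trend with length was removed, the log2 fold change of Stat3 at d14 was 0.034 (unadjusted p = 0.547, adjusted p = 0.743). Jak2, with 5030 bases, kept 0.16 (unadjusted p = 0.0188, adjusted p = 0.203), and Stat5b, with 5539 bases, had 0.081 (unadjusted p = 0.0792). The Socs3 value was 0.31 and the Lepr value 0.14. With RIN as a covariate instead, Stat3 had 0.19 and Jak2 0.18. The cause of the trend with length was not tested. Summed astrocyte markers were also higher in ExpOF d14 (2782 to 2905 CPM, against 2378 to 2887 in Control d14; exact permutation test, p = 0.0238). Summed pericyte and smooth muscle markers were lower (198 to 221 against 224 to 251 CPM; exact permutation test, p = 0.00216, the smallest possible), as were those of the leptomeninges (269 to 405 against 345 to 686 CPM; exact permutation test, p = 0.0108). The median log2 fold change of the 8 astrocyte markers was only 0.026, 3 of them were below 0, and most of the sum came from Slc1a2 and Slc1a3. Of the 8 pericyte and smooth muscle markers 6 were below 0 and 2 above. Among them Rgs5 had a mean of 89.6 CPM in ExpOF d14 and 89.5 CPM in Control d14, and Vtn 59.6 and 75.7 CPM. Pituitary markers summed to 14.6 to 34.3 CPM in ExpOF d14 and 16.3 to 116 CPM in Control d14 (exact permutation test, p = 0.0498), with Lhb at 0 in every library. All 8 astrocyte, 8 pericyte, 11 leptomeningeal and 6 other pituitary markers had counts in both groups, and their part in the values of Stat3, Jak2 and Stat5b was not tested.

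**Figure D4:**
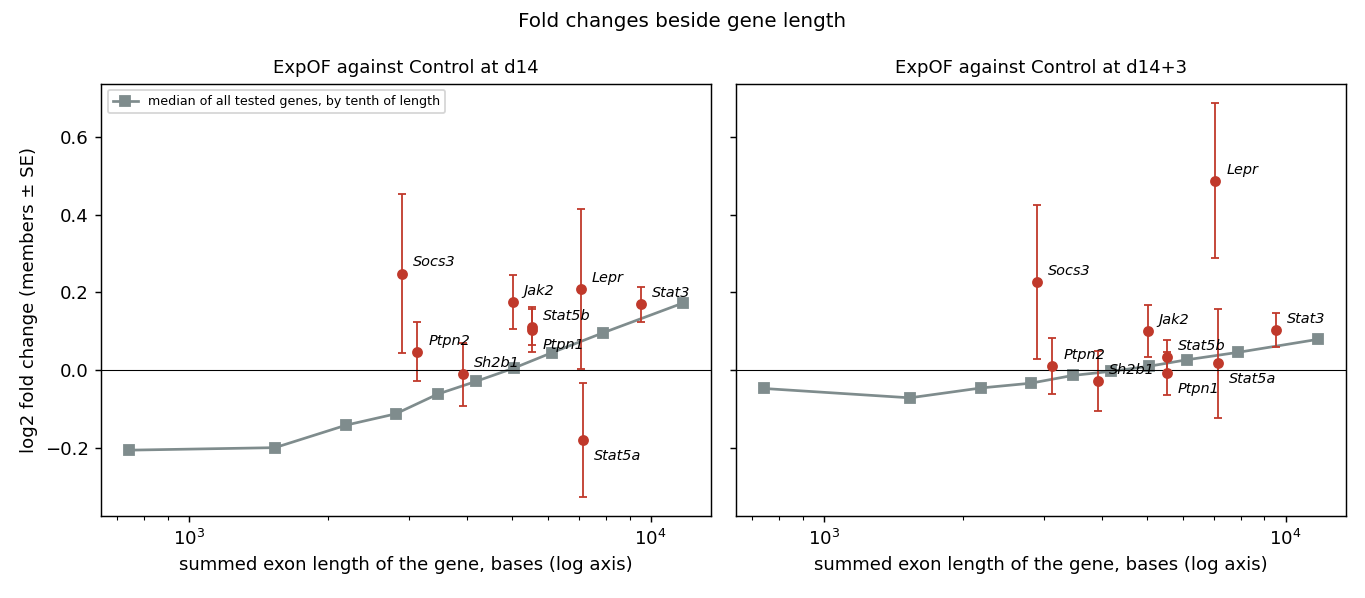
Log2 fold change of the 9 genes (red, ± SE) against their summed exon length on a log axis, at d14 (left) and d14+3 (right), with the median of all tested genes in each of 10 classes of length (grey squares). At d14 the grey line climbs from -0.21 to 0.17, and Stat3 sits close to it.

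In edgeR, whether members were called at d14 depended on 1 Control mouse, replicate 1, whereas DESeq2 called Stat3 with this mouse included. Replicate 1 had the highest sum of pituitary markers of the 23 libraries, 116 CPM, where the others had 12.9 to 58.8 CPM. It also had a RIN of 8.6 and the lowest correlation with the median of its group among the 23, 0.985. The part of these traits in the calls was not tested. Without Control d14 replicate 1, the adjusted p-values of edgeR's quasi-likelihood test were 0.0200 for Stat3, 0.0428 for Jak2 and 0.0326 for Stat5b, so that 3 members were called. In that fit 22.0% of all genes were called too, and the log2 fold changes were 0.20, 0.21 and 0.15. With all 24 libraries they were 0.24, 0.29 and 0.19, and none of these passed.

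**Figure D5:**
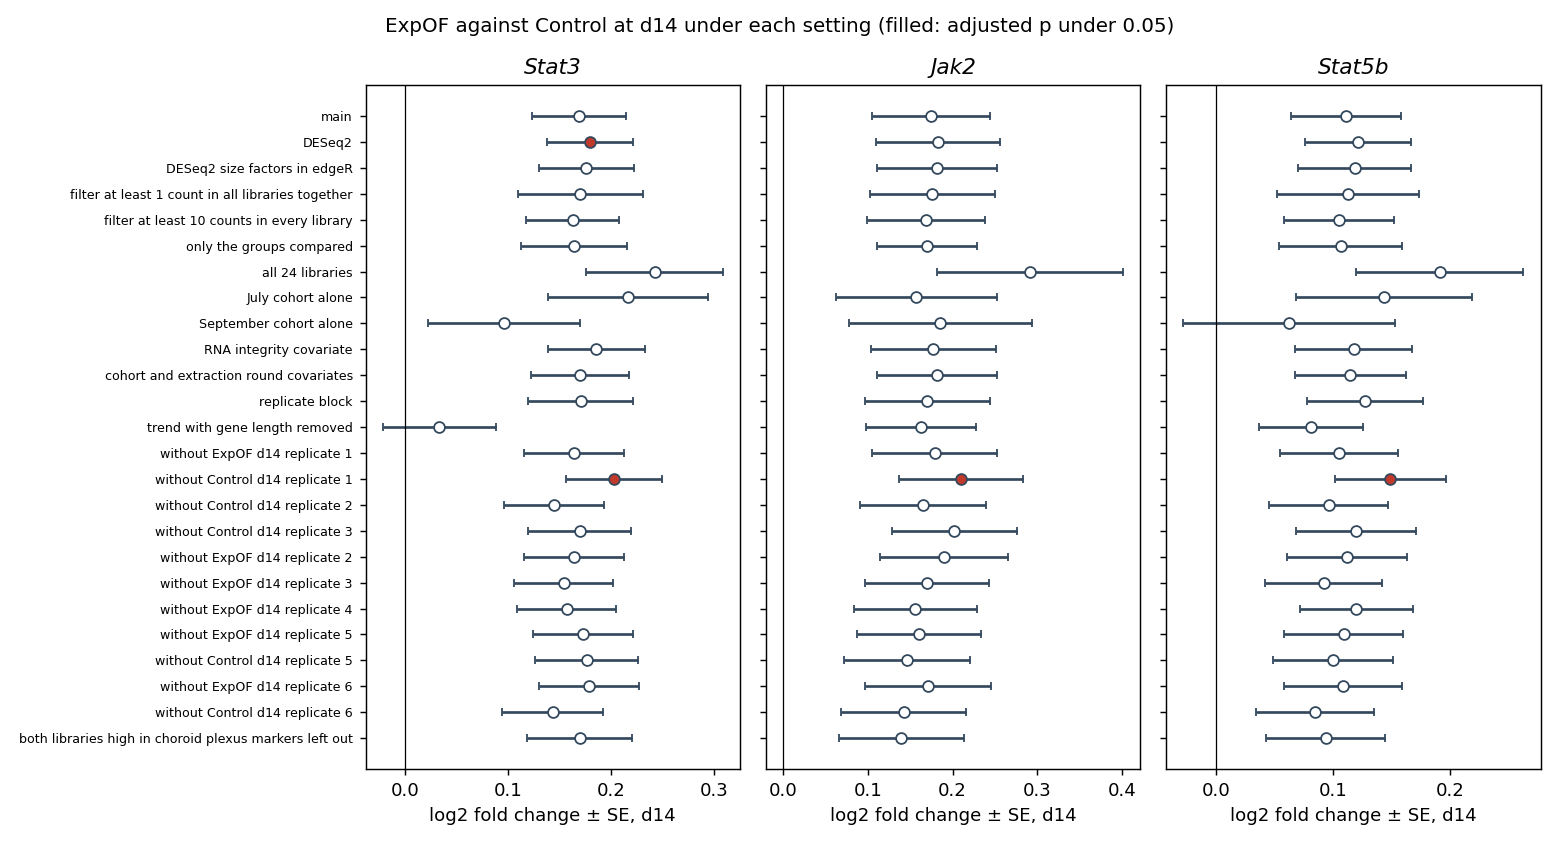
Log2 fold change ± SE of Stat3, Jak2 and Stat5b at d14 under the fit as reported (main) and each other setting, filled where the adjusted p was under 0.05. The fitted values stay above 0 under every setting shown, the Stat3 value drops to 0.034 with the length trend removed, and the filled points are DESeq2 for Stat3 and the fit without Control d14 replicate 1 for all 3 genes.

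Other genes of the pathway were described as lists at d14, without a test of the list. Over all genes tested, 26.7% had an unadjusted p under 0.05 in either direction, and the shares in the receptor-proximal (25.0%), negative regulator (25.0%) and cytokine receptor (21.4%) lists were close to or below it. By direction, 13.1% of all genes were higher and 13.6% lower, whereas the calls in the negative regulator and cytokine receptor lists were all higher. Of 16 further receptor-proximal genes, 3 were higher and 1 was lower at an unadjusted p under 0.05, and none passed adjustment. Those with the smallest p were Rock1, a kinase that acts on JAK2 (log2 fold change 0.46), Ncoa1, a transcriptional coactivator (0.23), Jak1 (0.15) and Clu, a secreted chaperone (-0.26). Of 20 other negative regulators, 5 were higher and none lower, among them Socs4 (0.45), Socs7 (0.17), Socs6 (0.21) and Socs5 (0.13). The list named the PI3K and MAPK branch held 27 genes, and it also took in the AMPK genes Prkaa1 and Prkaa2. Of the 27, 12 were higher, both AMPK genes among them, and 2 lower (51.9% in all), with a median log2 fold change of 0.15. The smallest p in this list belonged to Prkaa2, a catalytic subunit of AMPK (0.35), then Pik3ca, the catalytic PI3-kinase subunit (0.26), and Gsk3b (0.27). The values of the lists are given without removal of the trend with gene length, and its part in them was not tested. Of 14 other STAT3-coupled cytokine receptor genes, 3 were higher and none lower: Lifr (0.38), the shared subunit Il6st (0.23) and Prlr (0.44), while Cntfr had -0.17 (edgeR's quasi-likelihood test, adjusted p = 0.254). Prlr is also among the choroid plexus markers, of which 12 were tested, and was the only 1 of them with a fitted fold change above 1. The other 11 were lower in this fit, which holds Control d14 replicate 5, the library highest in these markers. Their part in the Prlr value was not tested.

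The genes known to respond to leptin or STAT3 gave the 1 adjusted call. Among 19 such neuropeptide and target genes, 1 was higher and 4 were lower at an unadjusted p under 0.05, or 26.3% beside 26.7% of all genes. Npy fell from 24.3 ± 4.17 CPM (SD, n = 5) to 11.3 ± 1.32 CPM (SD, n = 6) in ExpOF mice, or -1.10 ± 0.12 on the log2 scale (SE; edgeR's quasi-likelihood test, adjusted p = 4.69e-05). Agrp had 8.60 ± 2.30 CPM in Control and 4.62 ± 0.603 CPM in ExpOF mice, with a log2 fold change of -0.90. It did not pass in edgeR's quasi-likelihood test (unadjusted p = 3.09e-05, adjusted p = 0.117). The study, which tested with DESeq2, reported decreased Agrp at d14. Npy and Agrp are also among the 13 hypothalamic markers, of which 6 were lower and 1 higher at an unadjusted p under 0.05 (53.8%). Lower too were Avp (log2 fold change -0.83), Oxt (-0.70), Hcrt (-0.69) and Gal (-0.23), and Sim1 was higher (0.55). Of all 13, 11 had a log2 fold change below 0 and 2 above it, with Pmch at -0.02 and Pomc at 0.20. The 13 markers summed to 733 to 990 CPM in ExpOF d14 and 788 to 1399 CPM in Control d14 mice (exact permutation test, p = 0.0996). The part of the other markers in the Npy and Agrp values was not tested. Serpina3n, an acute-phase gene of astrocytes and a STAT3 target, had 0.35, and Vim, an intermediate filament gene, had -0.33 (adjusted p = 0.135 and 0.165).

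The second question was whether the same genes differed 3 days after the infusion ended. At d14+3 none of the 9 genes and 0.00% of all genes passed after adjustment (edgeR's quasi-likelihood test, smallest adjusted p of a member = 0.610). At an unadjusted p under 0.05, 2 members, Lepr and Stat3, were higher and none was lower, beside 2.91% of all genes higher and 4.20% lower. DESeq2 called none of the 9 and 43 other genes, 0.25% of the genes it tested. The fold change was above 1 for 7 members and for 52.1% of all genes.

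Lepr was measured at 2.34 to 4.85 CPM (median 3.15) in Control d14+3 and at 3.19 to 6.23 CPM (median 4.92) in ExpOF d14+3 mice. The groups overlapped, and 3 of the 6 ExpOF mice lay above every Control mouse. Lepr was 1.40-fold higher (95% interval 1.05 to 1.86; edgeR's quasi-likelihood test, unadjusted p = 0.0220, adjusted p = 0.610; exact permutation test, p = 0.0281). The log2 fold change of 0.49 was 0.40 in July and 0.58 in September mice. The highest ExpOF value came from replicate 4, with 2055 CPM of choroid plexus markers, and without it the log2 fold change was 0.40 (unadjusted p = 0.0641). Without Control d14+3 replicate 1, the lowest Control mouse, it was also 0.40 (unadjusted p = 0.0595).

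Stat3 was measured at 77.7 to 86.5 CPM (median 80.4) in Control d14+3 and at 83.9 to 92.7 CPM (median 86.3) in ExpOF d14+3 mice. All but 1 Control mouse lay below every ExpOF mouse. The log2 fold change was 0.10 ± 0.04 (SE; edgeR's quasi-likelihood test, unadjusted p = 0.0265, adjusted p = 0.640; exact permutation test, p = 0.00866), and 0.046 with the length trend removed. For the remaining members the log2 fold changes ran from -0.03 for Sh2b1 to 0.23 for Socs3, none with an unadjusted p under 0.05. Socs3 had 2.48 to 5.48 CPM in Control and 3.41 to 4.40 CPM in ExpOF mice. Its highest value, 5.48 CPM, was that of Control d14+3 replicate 1, without which the log2 fold change of Socs3 was 0.42 (edgeR's quasi-likelihood test, unadjusted p = 0.0331, adjusted p = 0.956), and without Control d14+3 replicate 4 it was 0.15. Of the marker lists, only microglia had a summed level with an unadjusted p under 0.05 at d14+3, at 250.2 to 269 CPM in ExpOF and 242 to 262 CPM in Control mice (exact permutation test, p = 0.0260). All 6 had counts in both groups, and their part in the Lepr and Stat3 values was not tested. In the pathway lists, Npy was again the gene with the smallest p among those named (log2 fold change -0.56, adjusted p = 0.206), Agrp had -0.15 (adjusted p = 0.811), and no receptor-proximal gene, negative regulator or cytokine receptor had an unadjusted p under 0.05. In the PI3K and MAPK list, with its AMPK genes, 1 of 27 genes was lower (3.70%). Among the 19 neuropeptide and target genes 1 was higher and 3 were lower (21.1%), beside 7.11% of all genes in either direction. Of the 13 hypothalamic markers 3 were lower and 0 higher (23.1%), namely Npy, Avp (log2 fold change -0.99) and Oxt (-0.73).

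The difference between both overfeeding effects was tested as an interaction. No member passed (edgeR's quasi-likelihood test, smallest adjusted p = 0.903), and none had an unadjusted p under 0.05, beside 0.00% of all genes after and 4.42% before adjustment. DESeq2 called no member either, beside 0 of the 39939 genes it tested. For Lepr the effect at d14+3 was higher by 0.28 ± 0.29 (log2, SE) and for Stat3 lower by 0.07 ± 0.06. The days were therefore not shown to differ for any of the genes. The 95% intervals of the difference, from -0.31 to 0.87 for Lepr and from -0.20 to 0.06 for Stat3, bound its size.

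The groups of the separate days, which were separate animals, were also compared. Between ExpOF d14+3 and ExpOF d14 mice, Stat3 and Stat5b were lower at an unadjusted p under 0.05, 2 of 9 members beside 2.40% of all genes, and 0.00% passed adjustment. Stat3 was 0.12 lower on the log2 scale, at -0.12 ± 0.04 (SE; adjusted p = 0.333; exact permutation test, p = 0.00649), with 5 of 6 d14+3 mice below every d14 mouse. Stat5b was at -0.10 ± 0.04 (SE; adjusted p = 0.575; exact permutation test, p = 0.00866). DESeq2 called no member and 197 other genes in this comparison, 1.15% of the genes it tested. Between Control d14+3 and Control d14 mice, no member was among the 1.15% of genes called after adjustment. DESeq2 called none of the 9 either, beside 3.29% of the genes it tested. Ptpn1 was higher at an unadjusted p under 0.05 (log2 fold change 0.15 ± 0.06 SE, adjusted p = 0.263; exact permutation test, p = 0.0411), 1 of 9 members beside 6.81% of all genes. Its Control mice had 33.5 to 42.2 CPM at d14+3. The 5 thalamus markers summed to 158 to 431 CPM in the d14 libraries and to 356 to 768 CPM in the d14+3 libraries, all with counts in every group. Their part in the comparisons between days was not tested, and the day of sampling cannot be told apart from how the tissue was cut on that day.

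Within groups, each gene was compared with 12298 genes of at least 5 CPM by the correlation of log2 CPM after subtraction of the group mean, as a description over 23 libraries that share depth and tissue composition. The genes most like Lepr were Trpm3 (Pearson r = 0.88), a cation channel gene that the choroid plexus is known to express, Sulf1 (0.87) and Stk35 (0.81). Jak2 was most like Luc7l (0.90), Pik3ca (0.90) and Cdc37l1 (0.89). Stat3 was most like Yap1 (0.78), Aph1c (0.77) and Phka1 (0.75), and Stat5b most like Mapkbp1 (0.77), Cacna1h (0.76) and Fbxo10 (0.75). Stat5a went with Edc4 (0.78), Adamts10 (0.78) and Wdr11 (0.74), and Socs3 with Slc39a1 (0.76), Mmp2 (0.74) and Nmt1 (0.72). Ptpn1 was most like Sin3b (0.92), Rgl2 (0.86) and Tfeb (0.85), Ptpn2 most like Ccng1 (0.83), Six3 (0.80) and Ahsa2 (0.80), and Sh2b1 most like Git1 (0.90), Lztr1 (0.90) and Crmp1 (0.89). Among the members themselves, the closest pairs were Ptpn1 with Sh2b1 (r = 0.81), Lepr with Stat3 (0.62) and Jak2 with Ptpn2 (0.61). No member was among the 3 genes most like another.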

How the data were processed

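Hypothalamic poly-A RNA of 24 mice was sequenced as stranded paired-end libraries. The authors used STAR and mm10 for alignment and featureCounts 1.6.4 with GENCODE vM22 genes for counting. They deposited raw counts, not normalized, beside a column of gene lengths. Whether counting used the strand is not given in the sources used here. Symbols came from GENCODE vM21, of the same build. Control d14 replicate 4 was left out: the study removed 1 Control d14 mouse for RNA quality without naming it, and only this library, once removed, gives the mean expression listed by the study.

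Counts were tested with edgeR 4.0.16 in R 4.3.3 (TMM, filterByExpr with a minimum count of 10 and total of 15, robust quasi-likelihood F-test, all 4 groups in 1 fit), with Benjamini-Hochberg adjustment over 18992 genes and a threshold of 0.05. CPM and RPKM use TMM-scaled library sizes, and log2 CPM uses a prior count of 2. Values of single genes were compared with two-sided exact permutation tests over mice. The 9 genes, pathway lists and marker lists were chosen with earlier results of these data known. In each list at most 4 genes with the smallest unadjusted p at d14 were named (1 such gene is not reported here), and for each member the 3 genes most like it. The columns were all mapped to samples. Total counts set the counting error, which is largest for Lepr, Socs3 and Stat5a. The mice were separate animals, and 36 permutation tests were run on the members over 4 comparisons.

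Alternatives were DESeq2 1.42.0, DESeq2 size factors, filters of at least 1 count in all or 10 counts in every library, only the groups compared, all 24 libraries, each cohort alone, covariates for RIN or for cohort and extraction round, a replicate block, removal of the trend with gene length (spline with 5 degrees of freedom) and each library left out. Leaving out both libraries high in choroid plexus markers was chosen after seeing the data. The scripts were tested on simulated data.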

Additional observations from a re-analysis of the deposited data

Results flagged for a closer look

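Each of the 36 sets of values (9 genes in 4 groups) was searched for a mouse far from the rest of its group by Dixon's criterion, by which chance alone would mark about 1 set in 20. The criterion marked 1 set. Ptpn2 stood at 19.8 CPM in ExpOF d14+3 replicate 3, a July mouse, where the other 5 mice of the group had 14.3 to 15.9 CPM. Without this mouse the log2 fold change of Ptpn2 at d14+3 was -0.06 (edgeR's quasi-likelihood test, unadjusted p = 0.336), compared with 0.01 with it. The cause was not tested.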

How the results depend on the processing

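As reported, 0 members passed at d14. From 0 to 3 were called when 1 library at a time was left out (3 without Control d14 replicate 1), and DESeq2 called 1. In the other comparisons no member was called under any setting. Lepr, Socs3 and Stat5a had the fewest counts and also the largest variation between mice of a group (22.5%, 22.4% and 15.4%). The share of each in their uncertainty was not tested. The log2 fold change of Stat3 at d14 was 0.034 to 0.24 over all settings and that of Lepr at d14+3 was 0.40 to 0.63. The changes of sign that follow, in log2 fold change, are of values with no adjusted p under 0.05, and their cause was not tested. With all 24 libraries, the sign changed for Sh2b1 0.055 at d14, Ptpn2 -0.010 between the ExpOF days, Stat3 0.012, Stat5b 0.055 and Ptpn2 -0.00960 between the Control days. In the July cohort alone, the sign changed for Stat5a -0.22, Ptpn1 0.043 and Sh2b1 0.032 at d14+3, Lepr -0.26, Jak2 0.086, Stat5a -0.16, Ptpn2 0.13 and Sh2b1 0.069 for the difference between days, Jak2 0.10 between the ExpOF days, Lepr 0.17, Stat3 0.022, Stat5b 0.020, Socs3 0.079, Ptpn2 -0.039 and Sh2b1 -0.00343 between the Control days. In the September cohort alone, the sign changed for Lepr -0.29, Socs3 -0.11 and Sh2b1 0.012 at d14, Jak2 -0.049 and Ptpn2 -0.12 at d14+3, Stat3 0.023 and Socs3 0.26 for the difference between days, Lepr 0.00287, Stat5a 0.050 and Ptpn2 -0.079 between the ExpOF days. With RIN as a covariate, the sign changed for Ptpn2 -0.014 at d14+3. With the length trend removed, the sign changed for Sh2b1 0.013 at d14, Stat5a -0.024 at d14+3, Stat3 0.012 for the difference between days, Ptpn2 -0.00564 between the ExpOF days. Without both libraries high in choroid plexus markers (chosen after seeing the data), the sign changed for Sh2b1 0.026 at d14, Stat5a -0.022 and Ptpn1 0.00110 at d14+3, Ptpn2 0.017 for the difference between days, Jak2 0.016 between the ExpOF days, Socs3 0.065 between the Control days. Leaving out 1 library at a time gave a change of sign within these ranges: Sh2b1 -0.050 to 0.033 at d14, Stat5a -0.078 to 0.14, Ptpn1 -0.043 to 0.023, Sh2b1 -0.072 to 0.013 and Ptpn2 -0.061 to 0.039 at d14+3, Sh2b1 -0.065 to 0.033 and Socs3 -0.25 to 0.18 for the difference between days, Ptpn2 -0.064 to 0.037, Jak2 -0.038 to 0.046 and Lepr -0.13 to 0.049 between the ExpOF days, Stat5b -0.043 to 0.014 and Socs3 -0.36 to 0.067 between the Control days.

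The replicate numbers did not pair the samples: deviations of same-numbered mice had correlations of -0.15 to -0.024 over the 5 pairs at d14 and -0.21 to 0.22 over the 6 pairs at d14+3. With the replicate number as a block no member was called in any of the comparisons, and the value of Stat3 at d14 was 0.17 on the log2 scale (adjusted p = 0.228). The block moved the number of genes called between the Control days from 218 to 33.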
